A study of Sus scrofa with 8 samples.

Results

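Hepatic genes of the complement and blood clotting cascades were followed in the livers of male Landrace x Large White pigs before and after feeding a steatotic diet. The 39 symbols were chosen by function, namely complement proteases, components and inhibitors, and clotting factors with their inhibitors and fibrinolytic partners, and the entries of the expression table that carry these symbols were taken. They gave 40 of the 18103 entries of the table, since C4BPA is listed under 2 gene IDs, and the C1q chains were left out. All 40 were measurable and entered the test. RNAseq was carried out on 8 liver libraries that each held the RNA of 2 pigs. The initial state, labelled Control and healthy, comprised 4 pools from pigs of 4 months, taken as biopsies. Steatosis comprised 4 pools from pigs of 6 months, after 2 months on the steatotic diet, and the livers were taken after euthanasia. That diet was rich in cholesterol, sodium cholate, saturated fat and fructose. It was restricted in methionine and choline and held less protein than the control diet. According to the methods, both groups are the same animals, so that diet, age and way of sampling cannot be told apart. Values are given as FPKM, fragments per kilobase of transcript scaled to the mapped fragments of the library, which is a level per transcript length.

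Complement is a set of plasma proteins that mark and lyse microbes. It is set off by antibody (classical pathway), by sugars on microbial surfaces (lectin pathway) or by spontaneous turnover of C3 (alternative pathway), and all routes end in the membrane attack complex. Clotting is a cascade of proteases that ends when thrombin converts fibrinogen into fibrin, plasmin then dissolves the fibrin, and the hepatocyte secretes most proteins of both systems.

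The genes ranged over more than 2 orders of magnitude in level. In the mean of the 8 libraries, FGB, FGG, FGA and C3 were highest with 5172, 3586, 2695 and 2656 FPKM, and FGB ranked 8th of all genes. At the low end, CFP, CFD, MASP1 and F10 had 20.8, 20.1, 19.6 and 14.5 FPKM. The summed level of all members was 5.18% to 6.17% of the FPKM sum of a library in the initial state and 4.79% to 5.38% in steatosis. Albumin, the defining hepatocyte transcript, alone made up 6.22% to 13.01%, with the highest share in Control pool 4.

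Most of these genes were not called, and 17 of the 28 such members had a 95% interval within 0.5 of 0 on the log2 scale. With the adjusted p of limma under 0.05, 8 of the 40 entries were higher in steatosis, against 26.7% of all 13175 genes tested. A further 4 of the 40 were lower, against 2.28% of all genes tested. With the pool number as a block, which pairs the pools, the counts were again 8 higher (25.7% of all genes) and 4 lower (2.6%). The 4 lower calls were SERPING1 and the fibrinogen chains FGA, FGB and FGG, which lie side by side. With the block, C4BPA (gene 100520761) took the place of SERPING1. The shares of the members and of all genes were not compared by a test. With the limits used in the study (adjusted p 0.01, log2 fold change 1), limma called 0 members, against 6.01% (higher) and 0.334% (lower) of all genes, and 16 members had an unadjusted p under 0.05. The 4 pools of each group did not overlap for 7 members that were higher in steatosis (29.6% of all genes) and 3 that were lower (2.53% of all genes).

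The median log2 fold change of the members was 0.08, whereas that of all genes tested was 0.25, and 27 of the 40 lay below the latter. Abundant genes as a whole also lay below 0.25, since the 586 genes with a mean of at least 100 FPKM had a median of 0.18, with 32.9% higher and 8.7% lower. Among them, the 29 members had a median of 0.08, with 6 higher and 4 lower. Because 0.25 is not 0, the zero point of the comparison depends on how the libraries are scaled. When libraries were scaled by the median ratio of their genes to the mean over libraries, the median of all genes became -0.02, and 1 member was higher (11.2% of all genes) and 9 were lower (10.1%). When libraries were divided by their upper quartile, that median was 0.03, with 3 members higher (12.7%) and 8 lower (7.79%). When they were set to equal levels of 15 hepatocyte markers, it was 0.42, with 15 members higher (48.2%) and 2 lower (1.22%). Among these markers, TAT (-1.22, adjusted p = 0.0562, limma) and PCK1 (-1.03, adjusted p = 0.0131) changed most. The other marker entries lay between -0.49 and 0.61. How far the calls under this scaling rest on TAT and PCK1 was not tested. The calls of single members that depend on the scaling are given with each gene.

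**Figure D1:**
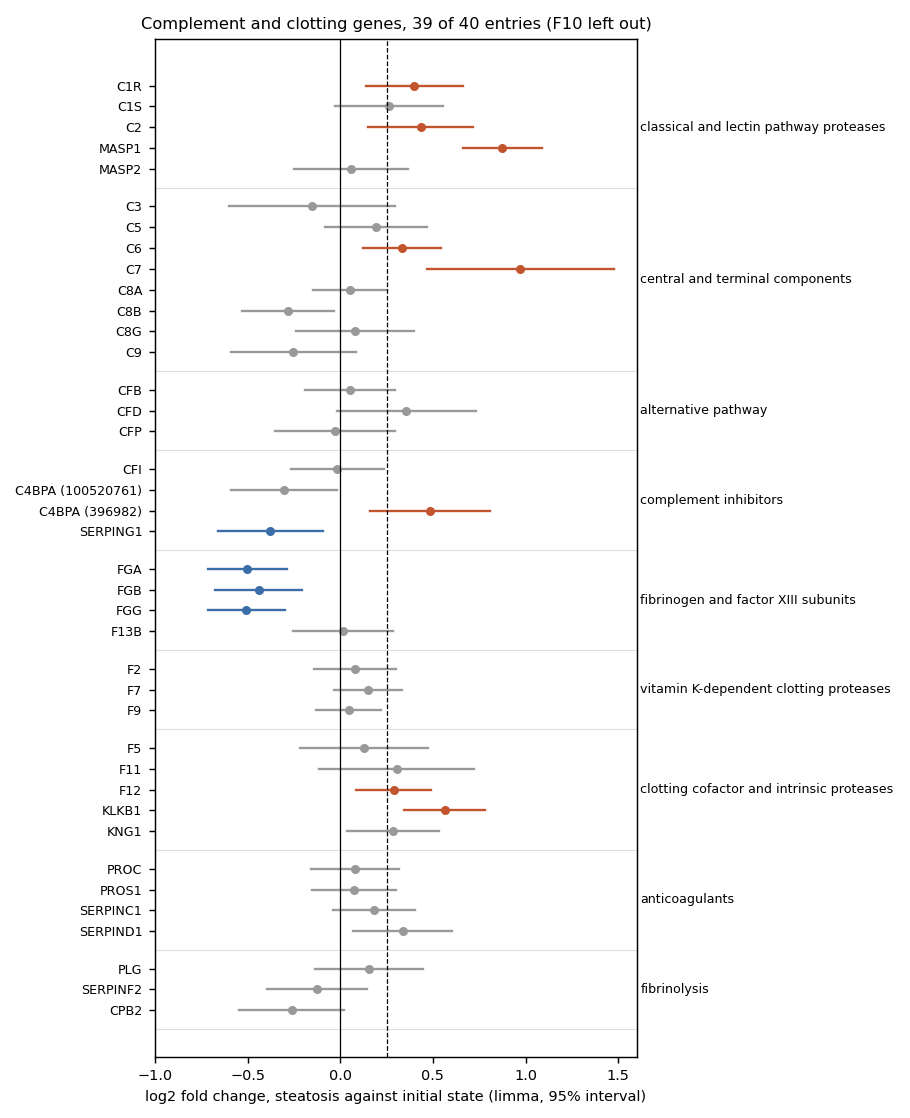
Log2 fold change of steatosis against the initial state (x axis) of 39 of the 40 entries, grouped by role, with 95% intervals from limma (orange higher, blue lower, grey not called). The solid line marks 0 and the dashed line the median of all genes, 0.25. The 3 fibrinogen chains lie left of 0, while MASP1 and C7 lie farthest right, and F10 is left out because its interval runs from -5.78 to 5.09.

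The fibrinogen chains gave the clearest lower values. Fibrinogen is built from equal numbers of alpha, beta and gamma chains, encoded by FGA, FGB and FGG. In assembly Sscrofa11.1 they lie side by side on chromosome 8, FGG at 74553040 to 74562151, FGA at 74574870 to 74584202 and FGB at 74598170 to 74607409.

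FGA had 3281, 3282, 3016 and 3056 FPKM in Control pools 1 to 4 and 2077, 2235, 2296 and 2316 FPKM in steatosis pools 1 to 4. FGB had 6335, 5962, 5613 and 5909 FPKM in the control pools and 4147, 4461, 4230 and 4720 FPKM after the diet. FGG had 4174, 4327, 4172 and 4163 FPKM in the control pools and 2873, 3037, 2957 and 2986 FPKM after the diet. For each chain every steatosis pool was below every control pool, and the spread within a group was small next to the distance between groups. The means (± SD, n = 4) dropped by 29.4% for FGA, from 3159 ± 142.8 to 2231 ± 108.3 FPKM. Its log2 fold change of -0.50 had an SE of 0.10 (adjusted p = 0.0043, limma). FGB fell by 0.44 (SE 0.11, adjusted p = 0.0127) and FGG by 0.51 (SE 0.09, adjusted p = 0.0036) on the same scale. All 3 calls held when any single library was left out. FGA and FGG were also lower under each of the 3 other scalings, while the FGB call was lost when libraries were set to equal hepatocyte markers (adjusted p = 0.0985), when low genes were kept in the test (0.0893) and without both Control pools 1 and 4 (0.0736).

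The proportions of the chains overlapped between the groups. The FGA to FGB ratio within a library was 0.531 ± 0.016 in the initial state and 0.509 ± 0.023 in steatosis, and the FGG to FGB ratio was 0.708 ± 0.036 and 0.676 ± 0.030. The summed fibrinogen level was 12801 to 13790 FPKM in the control pools and 9096 to 10022 FPKM after the diet. Its share of all members' FPKM was 41.0% to 47.4% in the former and 35.2% to 37.4% in the latter. Without the 3 chains, the summed level of the other members was 15138 to 18419 FPKM in the initial state and 15881 to 18167 FPKM in steatosis, so that the ranges overlapped. F13B, the carrier subunit of the factor XIII that crosslinks fibrin, had 58.1 ± 7.0 and 58.7 ± 7.6 FPKM (log2 fold change 0.01, adjusted p = 0.936).

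**Figure D2:**
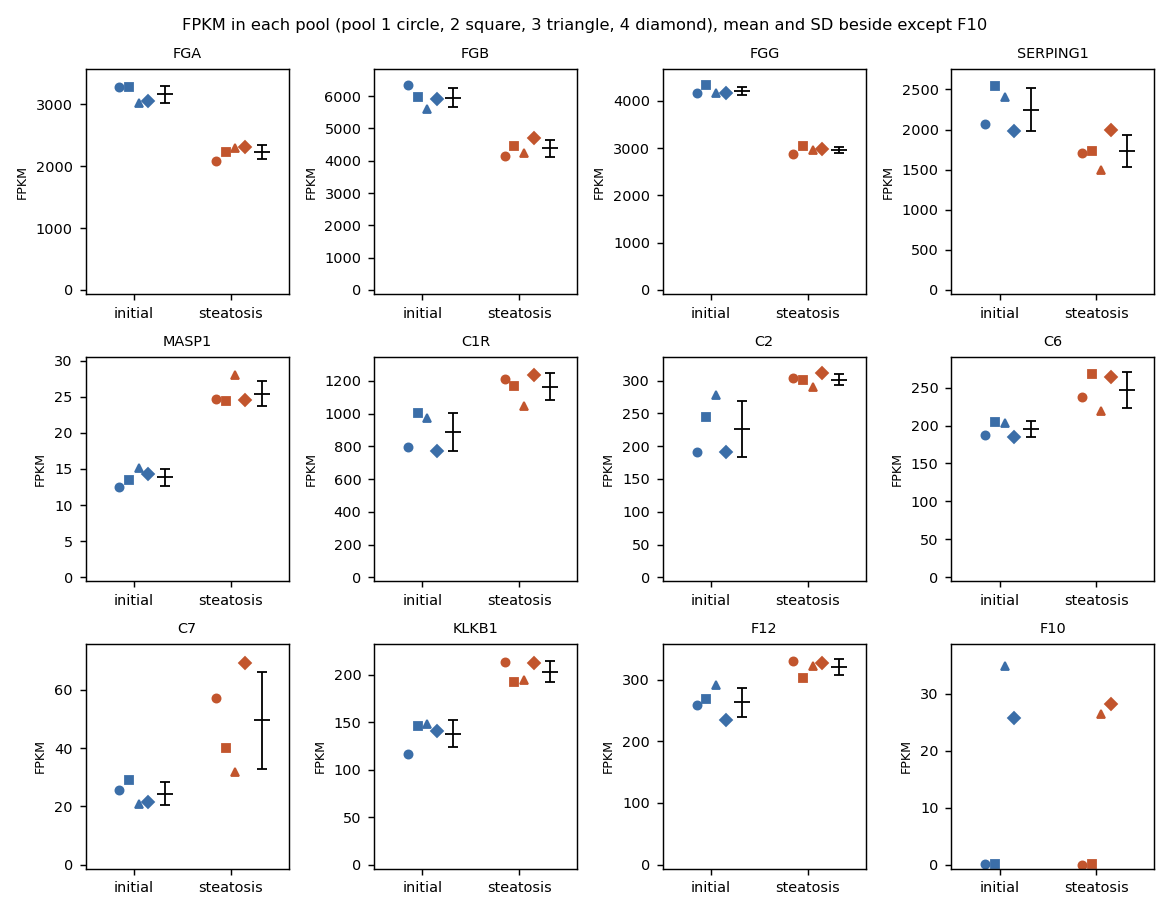
FPKM (y axis, from 0) of 11 members past the threshold and of F10 in each pool of the initial state (blue) and steatosis (orange), with the mean and SD (n = 4) drawn beside the points except for F10. The fibrinogen chains and MASP1 separate the groups widely, SERPING1 overlaps through pool 4 of each group, and F10 is near 0 in pools 1 and 2 of both groups.

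The contact factors, which start the intrinsic route of clotting and release bradykinin, were higher in part. KLKB1 (chromosome 15, 47071581 to 47100272) encodes plasma prekallikrein, the protease that cuts bradykinin from kininogen. It had 116.8, 146.0, 148.4 and 140.2 FPKM in Control pools 1 to 4 and 212.8, 192.3, 194.3 and 212.6 FPKM in steatosis pools 1 to 4. It rose in all 4 pools, with no overlap, by 0.56 on the log2 scale (SE 0.10, adjusted p = 0.0029, limma). This call held without any single library and missed the threshold under the median ratio scaling (adjusted p = 0.107).

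F12, factor XII, which activates prekallikrein, had 258.3, 269.0, 291.3 and 234.1 FPKM in the control pools and 330.1, 303.0, 321.5 and 327.6 FPKM after the diet. The groups did not overlap (log2 fold change 0.29, SE 0.09, adjusted p = 0.0386). It was lost with the pool number as a block (adjusted p = 0.0611), under the median ratio (0.969) and upper quartile (0.683) scalings and without any single library other than Control pool 3 (adjusted p up to 0.0994).

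KNG1, the kininogen that is the substrate, lay between 416.2 and 516.7 FPKM before the diet and between 503.8 and 630.8 FPKM after it (0.28, adjusted p = 0.0812). F11, factor XI, lay at 28.8 to 47.7 and 40.5 to 63.1 FPKM (0.30, adjusted p = 0.245), and F5, the cofactor of factor X, at 48.2 to 74.6 and 56.6 to 77.7 FPKM (0.13, adjusted p = 0.558). These 3 did not pass the test, and KNG1 passed it only with libraries set to equal hepatocyte markers (adjusted p = 0.013). The KLKB1 to F12 ratio within a library, which no scaling changes, was 0.526 ± 0.061 in the initial state and 0.633 ± 0.020 in steatosis without overlap. The KLKB1 to F11 ratio (3.46 ± 0.49 and 4.18 ± 0.88) and the KNG1 to KLKB1 ratio (3.41 ± 0.25 and 2.82 ± 0.35) overlapped.

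Of the vitamin K-dependent clotting proteases none passed the test at the deposited scaling. F2, the precursor of thrombin, had 547.7 ± 53.0 and 578.4 ± 39.9 FPKM (log2 fold change 0.08, 95% interval -0.14 to 0.30). F9, factor IX, had 354.6 ± 9.1 and 365.9 ± 18.4 FPKM (0.04, 95% interval -0.13 to 0.22), and F7, factor VII, had 63.8 ± 2.9 and 70.7 ± 4.6 FPKM (0.15, 95% interval -0.04 to 0.33). None of these bounds lay farther than 0.33 from 0 on the log2 scale, and F7 was called higher with equal hepatocyte markers (0.32, adjusted p = 0.0189). Measured against F2 in the same library, FGG went from 7.74 ± 0.71 to 5.14 ± 0.37 without overlap, whereas the F9 to F2 ratio was 0.651 ± 0.045 and 0.636 ± 0.063. The F7 to F2 ratio (0.117 ± 0.006 and 0.123 ± 0.011) and the PROC to F2 ratio (1.01 ± 0.05 and 1.02 ± 0.14) overlapped.

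F10, factor X, behaved unlike any other member. It had 0.15, 0.03, 34.9 and 25.9 FPKM in Control pools 1 to 4 and 0, 0.05, 26.5 and 28.2 FPKM in steatosis pools 1 to 4. Thus pools 1 and 2 were near 0 in both groups, and pools 3 and 4 were at 25.9 to 34.9 FPKM in both. Its neighbour F7, at 3.09 kb on chromosome 11, had 61.8 to 77.4 FPKM in all 8 libraries. Only 5 of the 18103 entries reached 10 FPKM in some library and stayed at or under 0.5 FPKM in another in both groups, and F10 was the only member. The difference between groups could therefore not be estimated (log2 fold change -0.35, SE 2.43), and the cause of the low values in pools 1 and 2 was not tested.

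The anticoagulants did not pass the test at the deposited scaling. SERPINC1, antithrombin, had 1365, 1497, 1625 and 1533 FPKM in the control pools and 1852, 1717, 1628 and 1621 FPKM after the diet (0.18, adjusted p = 0.193), and it was called higher with equal hepatocyte markers (0.35, adjusted p = 0.0257). SERPIND1, heparin cofactor II, had 384.3 ± 64.2 and 481.0 ± 26.8 FPKM (0.34, adjusted p = 0.0611) and passed with the pool number as a block (adjusted p = 0.0472), without Control pool 3 (0.0125) and with equal hepatocyte markers (0.0058). PROC, protein C, and PROS1, its cofactor protein S, had log2 fold changes of 0.08 and 0.07, with adjusted p of 0.605 and 0.62.

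The 3 fibrinolysis genes did not pass either. PLG, plasminogen, had 928.6, 1117, 1205 and 900.5 FPKM in the control pools and 1004, 1278, 1079 and 1250 FPKM after the diet (0.16, adjusted p = 0.391). SERPINF2, the plasmin inhibitor, and CPB2, the carboxypeptidase that protects fibrin from plasmin, had log2 fold changes of -0.13 (adjusted p = 0.453) and -0.26 (adjusted p = 0.144). Both were called lower under the median ratio scaling, with adjusted p of 0.0423 and 0.0298, and CPB2 also under the upper quartile scaling (0.0332).

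Of the 5 proteases of the lectin and classical pathways, 3 were higher (26.7% of all genes), and 1 under the median ratio scaling (11.2%). MASP1 (chromosome 13, 124938469 to 125028440) encodes the protease that starts the lectin pathway. It had 12.4, 13.5, 15.2 and 14.3 FPKM in Control pools 1 to 4 and 24.7, 24.4, 28.0 and 24.6 FPKM in steatosis pools 1 to 4. The mean (± SD, n = 4) rose by 83.9%, from 13.8 ± 1.16 to 25.4 ± 1.74 FPKM, which is 0.88 on the log2 scale (SE 0.10, adjusted p = 0.0003, limma). It was called in every fit without a single library and under every scaling, where the log2 fold change lay between 0.59 and 1.05. The other lectin pathway protease, MASP2, had 52.0 ± 8.85 and 53.8 ± 6.61 FPKM (0.06, adjusted p = 0.783), and the MASP1 to MASP2 ratio went from 0.270 ± 0.036 to 0.477 ± 0.058 without overlap.

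C1R, which is cleaved first in the C1 complex, had 799.3, 1003, 975.9 and 773.4 FPKM in the control pools and 1212, 1169, 1049 and 1234 FPKM after the diet. Its partner C1S had 648.5, 901.9, 846.9 and 850.3 FPKM in the control pools and 963.4, 1032, 824.3 and 1063 FPKM after the diet. C1R did not overlap between groups and passed the test (log2 fold change 0.40, SE 0.12, adjusted p = 0.0292), whereas C1S overlapped and did not pass (0.26, adjusted p = 0.156, and 0.0371 with equal hepatocyte markers). Their difference was not tested, and the C1R to C1S ratio overlapped, with 1.10 ± 0.14 and 1.21 ± 0.07. The C1R call was lost under the median ratio (adjusted p = 0.489) and upper quartile (0.296) scalings, and without Control pool 1 or 4 or steatosis pool 1, 2 or 4 (adjusted p up to 0.0813).

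C2, the protease of the classical and lectin C3 convertase, had 191.9, 244.6, 277.7 and 191.0 FPKM in the control pools and 304.8, 300.5, 290.2 and 311.3 FPKM after the diet. Again the groups did not overlap (0.43, SE 0.13, adjusted p = 0.0304). The call was lost under the median ratio (adjusted p = 0.375) and upper quartile (0.235) scalings, and without any single library other than Control pools 2 and 3 (adjusted p up to 0.0772). CFB, its counterpart in the alternative pathway, begins 34 bp after the end of C2 on chromosome 7 and had 724.1, 953.5, 892.8 and 757.6 FPKM in the control pools and 864.5, 840.4, 825.6 and 896.2 FPKM after the diet (0.05, adjusted p = 0.75). The C2 to CFB ratio was 0.271 ± 0.027 in the initial state and 0.352 ± 0.004 in steatosis, without overlap.

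**Figure D3:**
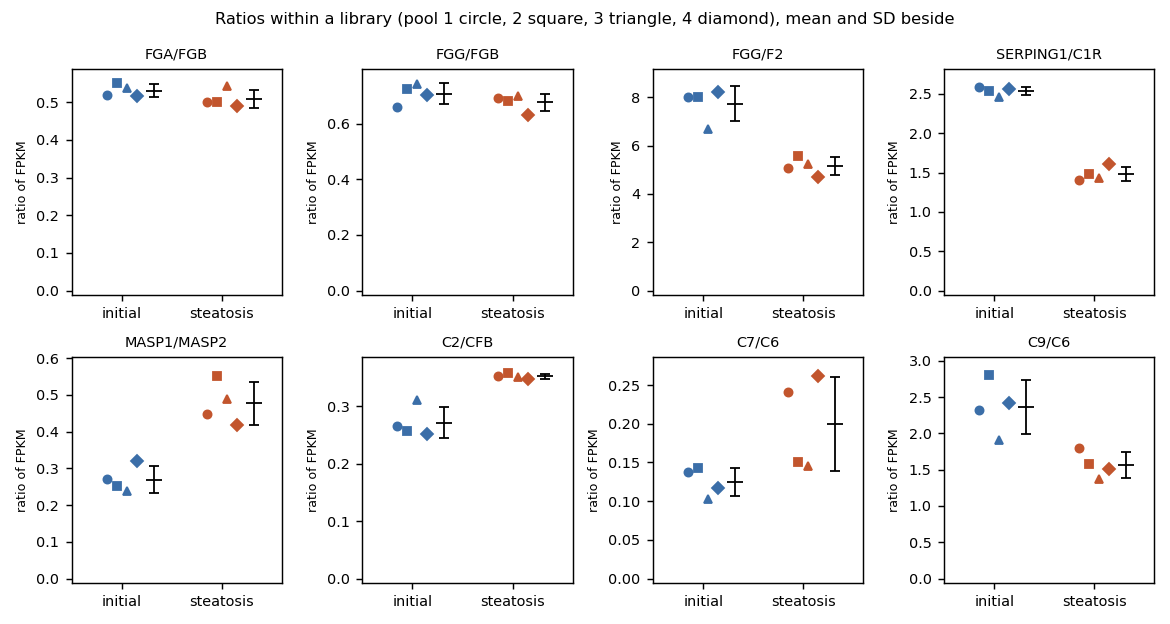
Ratio of the FPKM of a pair of genes within each library (y axis, from 0) in the initial state (blue) and steatosis (orange), with the mean and SD (n = 4) beside. The ratios among the fibrinogen chains overlap, and the other 6 ratios do not overlap between groups.

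The remaining alternative pathway genes did not pass the test. CFD, factor D, which is made chiefly by fat cells, had 24.0, 14.5, 17.8 and 14.8 FPKM in the control pools and 25.1, 19.8, 20.0 and 25.1 FPKM after the diet (0.36, adjusted p = 0.136). Control pool 1 was the high one of its group. In that library ADIPOQ, an adipocyte marker, had 27.9 FPKM against at most 0.6 FPKM in the other 7, and without it the adjusted p of CFD was 0.0215 (0.51). With equal hepatocyte markers it was 0.0266. Of the other fat cell markers, LPL and FABP4 had 6.59 and 44.7 FPKM there against at most 0.27 and 3.74 FPKM in the other control pools, but were as high in steatosis (5.21 to 11.4 and 41.9 to 53.6 FPKM), and PLIN1 had 3.01 FPKM there against 1.53 to 3.29 FPKM in the other control pools. CIDEA had 2.4 FPKM there against 0.24 to 0.96 FPKM elsewhere, and LEP 0.4 FPKM against 0 FPKM elsewhere. PCK1, also a hepatocyte marker, had 2455 FPKM there against 653.6 to 1907 FPKM elsewhere. The part of fat cells in the CFD level was not tested. CFP, properdin, a product of leukocytes, had 21.1 ± 4.48 and 20.4 ± 2.03 FPKM (-0.03, adjusted p = 0.892).

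C3, the central component, had 2719, 3433, 3186 and 1912 FPKM in the control pools and 2179, 2809, 2033 and 2976 FPKM after the diet. Its lowest and highest values were both in the initial state, and it was not called (-0.15, SE 0.20, adjusted p = 0.587). C5, which nucleates the membrane attack complex, had 162.2 ± 24.5 and 184.7 ± 18.0 FPKM (0.19, adjusted p = 0.261, and 0.0405 with equal hepatocyte markers).

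Of the 6 genes that encode C6 to C9, 2 were higher, against 26.7% of all genes, and 0 were higher under the median ratio scaling. C7 (chromosome 16, 25846860 to 25902707) had 25.7, 29.2, 21.0 and 21.6 FPKM in Control pools 1 to 4 and 57.1, 40.2, 31.8 and 69.1 FPKM in steatosis pools 1 to 4. The mean went from 24.4 ± 3.85 to 49.5 ± 16.7 FPKM, the largest log2 fold change of the members that were called (0.97, SE 0.23, adjusted p = 0.0113). Steatosis pools 1 and 4 were the highest. The call held without any single library and missed the threshold under the median ratio scaling (adjusted p = 0.0502) and without both Control pools 1 and 4 (0.0646).

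Of the 12 markers of fibroblasts and stellate cells, 8 were higher in steatosis pools 1 and 4 than in pools 2 and 3, among them the fibrillar collagens, 3 (LRAT, RELN and HGF) were lower there, and RGS5 was neither. COL3A1, a fibrillar collagen, had 85.4, 49.4, 49.1 and 118.3 FPKM in steatosis pools 1 to 4 and 20.6 to 51.1 FPKM in the control pools. The summed level of the 12 markers was 71.6 to 208 FPKM in the initial state and 134.2 to 334.5 FPKM in steatosis. Of the 12, 6 were higher and 1 lower (3 and 1 under the median ratio scaling), against 26.7% and 2.28% of all genes. The part of these markers in the C7 level was not tested.

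C6, which lies 121 kb from C7, had 187.3, 204.9, 204.0 and 185.1 FPKM in the control pools and 237.3, 267.7, 218.7 and 263.9 FPKM after the diet (0.33, SE 0.09, adjusted p = 0.0252). The groups did not overlap, but the call was lost under the median ratio (adjusted p = 0.734) and upper quartile (0.462) scalings and without Control pool 1 or 4 or steatosis pool 2 or 4 (adjusted p up to 0.0783). The C7 to C6 ratio went from 0.125 ± 0.018 to 0.199 ± 0.060 without overlap.

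C9, whose polymer forms the pore, was not called and had a negative estimate (461.6 ± 79.3 and 387.1 ± 60.6 FPKM, -0.25, adjusted p = 0.232). Its ratio to C6 went from 2.36 ± 0.37 to 1.57 ± 0.18 without overlap. The 3 chains of C8 were not called either, with log2 fold changes of 0.05 for C8A, -0.28 for C8B (adjusted p = 0.0837) and 0.08 for C8G. C8B and C9 were called lower under the median ratio (adjusted p = 0.0147 and 0.0371) and upper quartile (0.0143 and 0.0452) scalings.

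Of the complement inhibitors, SERPING1 (chromosome 2, 13324160 to 13338826) encodes the C1 inhibitor, which blocks C1r, C1s, the MASPs, factor XIIa and kallikrein. It had 2070, 2543, 2403 and 1980 FPKM in Control pools 1 to 4 and 1705, 1731, 1499 and 1989 FPKM in steatosis pools 1 to 4. Pools 1 to 3 were lower in steatosis and pool 4 was level, so that the groups overlapped. SERPING1 fell by 0.38 on the log2 scale (SE 0.13, adjusted p = 0.0485), and the call was lost with the pool number as a block (adjusted p = 0.0688), with equal hepatocyte markers (0.244) and without any single library other than pool 4 of either group (adjusted p up to 0.129). Set against its target C1R in the same library, the SERPING1 to C1R ratio was 2.54 ± 0.05 in the initial state and 1.48 ± 0.09 in steatosis, with no overlap. This pair, like the other pairs, was chosen after the values had been seen.

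C4BPA encodes the alpha chain of the C4b-binding protein. The 2 entries lie 41.2 kb apart on chromosome 9 and could share reads, so their values are uncertain. Gene 100520761 had 178.2 ± 23.8 and 144.3 ± 18.4 FPKM (-0.30, adjusted p = 0.102, with 0.0453 under the pool block and 0.0443 without Control pool 1). It was called lower under the median ratio (adjusted p = 0.015) and upper quartile (0.0166) scalings. Gene 396982, whose product is described as an apolipoprotein R precursor, had 138.2, 141.4, 136.6 and 211.8 FPKM in the control pools and 206.1, 238.3, 202.4 and 218.1 FPKM after the diet (0.48, SE 0.14, adjusted p = 0.032).

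Control pool 4 reached the steatosis range, and the call for gene 396982 was lost without any single library other than that pool (adjusted p up to 0.0836) and under the median ratio (0.492) and upper quartile (0.35) scalings. The ratio of gene 396982 to gene 100520761 went from 0.896 ± 0.249 to 1.51 ± 0.15 without overlap. The ratio of gene 100520761 to the partner gene C4BPB overlapped, with 1.84 ± 0.25 and 1.38 ± 0.26. CFI, the protease that inactivates C3b and C4b, had 322.7 ± 43.1 and 317.3 ± 17.6 FPKM (-0.02, adjusted p = 0.929).

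**Figure D4:**
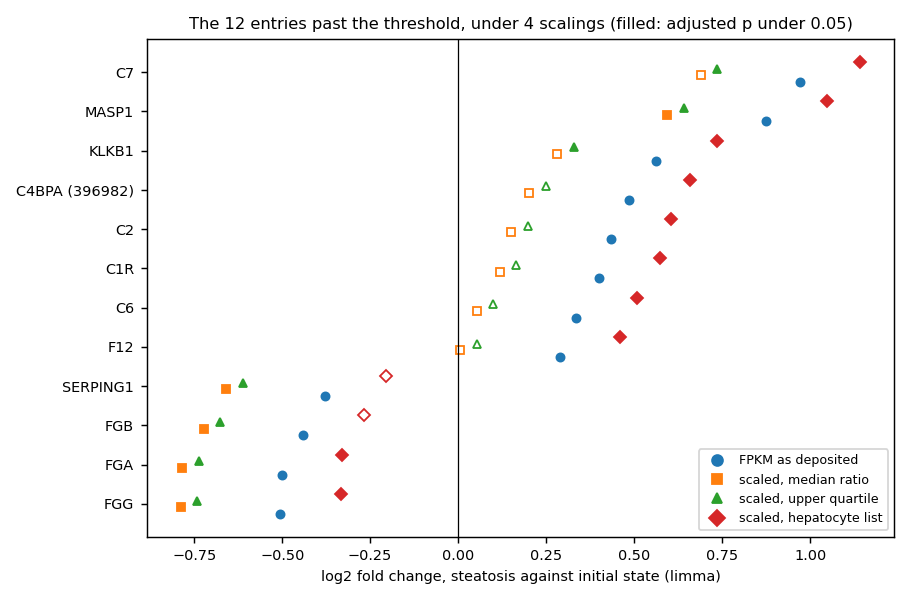
Log2 fold change of steatosis against the initial state (x axis) of the 12 entries past the threshold, for FPKM as deposited and for 3 scalings of the libraries, with filled points where the adjusted p was under 0.05. All 12 keep their direction, and FGA, FGG and MASP1 are filled under all 4 scalings.

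Other genes of the cascades were drawn from a list of 67 symbols, of which 60 were in the table and 54 could be tested. Of these, 21 were higher and 3 were lower, against 26.7% and 2.28% of all genes, with a median log2 fold change of 0.38. Under the median ratio scaling, 13 were higher and 9 lower.

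Of the recognition molecules of the lectin pathway, COLEC10, COLEC11 and MBL1 rose, whereas MBL2 and the ficolins FCN1 and FCN2 were not called. FCN1 and FCN2 overlapped between groups, with log2 fold changes of 0.395 and 0.24 (adjusted p = 0.33 and 0.659, limma). COLEC10 had 18.8, 22.7, 22.2 and 21.4 FPKM in the control pools and 33.3, 38.1, 45.9 and 39.8 FPKM after the diet (0.88, adjusted p = 0.0006). COLEC11 went from 20.1 ± 1.71 to 39.97 ± 4.25 FPKM (0.98, adjusted p = 0.0002) and MBL1 from 35.2 ± 6.22 to 55.2 ± 7.17 FPKM (0.66, adjusted p = 0.0075). COLEC10 and COLEC11 were called under every scaling, and MBL1 was not under the median ratio (adjusted p = 0.104) and upper quartile (0.0625) scalings. MBL2 had 50.6, 4.26, 72.6 and 48.7 FPKM in the control pools and 139.9, 5.45, 65.2 and 60.0 FPKM after the diet, so that pool 2 was low in both groups, and it was not called (adjusted p = 0.755).

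Of the receptors for complement fragments, C5AR1 and C3AR1 were called higher and C5AR2 was not (0.25, adjusted p = 0.574, limma). C5AR2 lay between 0.17 and 0.63 FPKM, near the filter of 0.3 FPKM, so that its result says little. VSIG4 (0.94, adjusted p = 0.0021) and ITGAM (0.78, adjusted p = 0.008) were also called higher, and CR1 was not (0.24, adjusted p = 0.57). ITGAM was counted among the myeloid markers as well. C5AR1, the receptor of the C5 fragment on myeloid cells, had 4.07 to 4.97 FPKM in the control pools and 14.1 to 20.8 FPKM after the diet (1.92, adjusted p = 3.05e-05), and C3AR1 went from 7.33 ± 1.79 to 15.1 ± 2.14 FPKM (1.05, adjusted p = 0.0022). Of the myeloid markers, 7 of 11 were higher and 0 were lower, against 26.7% and 2.28% of all genes. Under the median ratio scaling 6 were higher and 2 lower. Their summed level was 505.4 to 587.5 FPKM in the initial state and 643.3 to 739.5 FPKM in steatosis. Their part in the receptor levels was not tested.

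The plasminogen activators were higher at low levels, and the 6 genes of the list with a log2 fold change of over 1 (C5AR1, C3AR1, PLAU, PLAT, SERPINE2 and ADAMTS13) had an adjusted p under 0.05 under every scaling. PLAU, urokinase, had 0.62 to 1.24 FPKM in the control pools and 2.91 to 4.51 FPKM after the diet (2.02, adjusted p = 0.0002), PLAT, the tissue activator, went from 0.93 ± 0.58 to 2.85 ± 0.54 FPKM (1.64, adjusted p = 0.0054), and the urokinase receptor PLAUR from 2.05 ± 0.13 to 3.72 ± 0.34 FPKM (0.83, adjusted p = 0.001). SERPINE2, an inhibitor of thrombin and of these activators, had 0.92, 1.46, 1.13 and 0.81 FPKM in the control pools and 5.47, 3.12, 2.38 and 7.14 FPKM after the diet (1.87, adjusted p = 0.0028), with pools 1 and 4 highest as for C7. ADAMTS13, the protease that trims von Willebrand factor, went from 1.64 ± 0.48 to 3.29 ± 0.35 FPKM (1.0005, adjusted p = 0.008).

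The 3 genes of the list that fell were LMAN1, MCFD2 and HRG. LMAN1 and MCFD2 form the receptor that carries factors V and VIII out of the endoplasmic reticulum. LMAN1 had 59.6, 70.5, 70.8 and 66.7 FPKM in the control pools and 41.7, 49.6, 46.2 and 39.5 FPKM after the diet (-0.60, adjusted p = 0.0024). MCFD2 had 86.6, 91.0, 101.5 and 81.1 FPKM in the control pools and 63.9, 66.9, 70.7 and 52.8 FPKM after the diet (-0.51, adjusted p = 0.0094). Both were lower in all 4 pools and under every scaling. Of their cargo, F5 was not called, as given above, and F8 went from 2.55 ± 0.55 to 3.76 ± 0.53 FPKM (0.56, adjusted p = 0.04). The F8 call was lost under the median ratio (adjusted p = 0.161) and upper quartile (0.147) scalings and without any single library other than Control pool 2 (adjusted p up to 0.111). HRG, a plasma glycoprotein that binds fibrinogen and plasminogen, had 2065, 1606, 2498 and 1382 FPKM in the control pools and 1120, 1350, 1136 and 1045 FPKM after the diet (-0.67, adjusted p = 0.0214), and its call was lost without steatosis pool 3 or 4 (adjusted p up to 0.0612).

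**Figure D5:**
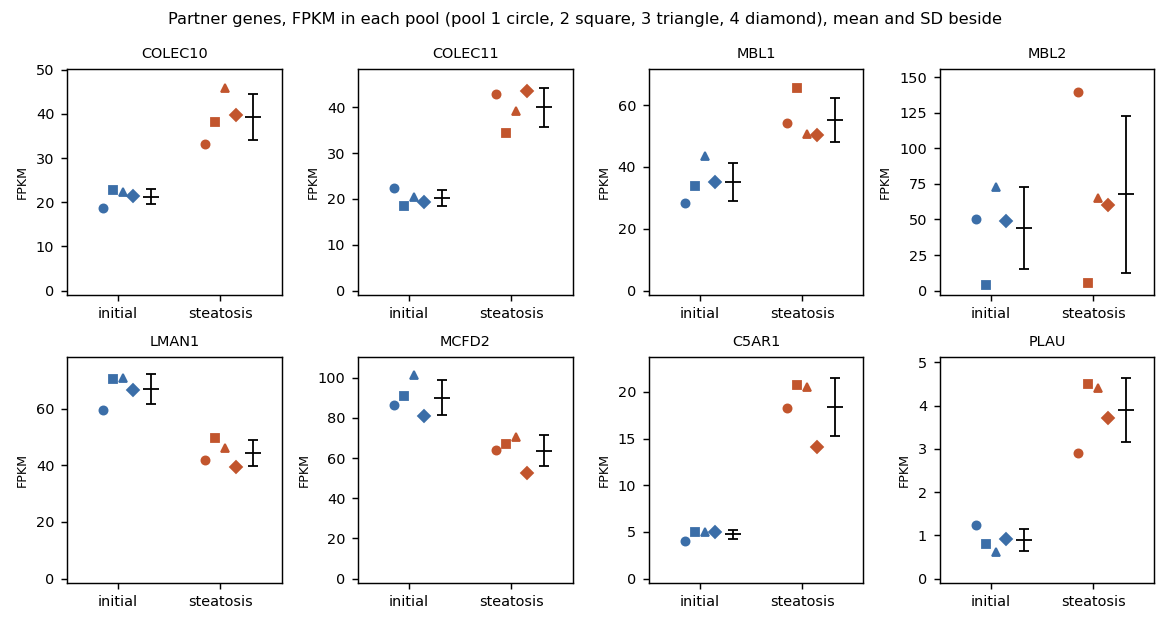
FPKM (y axis, from 0) of 8 partner genes in each pool of the initial state (blue) and steatosis (orange), with the mean and SD (n = 4) beside. COLEC10, COLEC11, MBL1, C5AR1 and PLAU lie higher and LMAN1 and MCFD2 lower in every steatosis pool, and MBL2 is near 5 FPKM in pool 2 of both groups.

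Among 16 regulators of hepatocyte genes, 0 were higher and 2 were lower (0 and 3 under the median ratio scaling), against 26.7% and 2.28% of all genes. FOXA2, a transcription factor of liver genes, went from 15.9 ± 3.23 to 7.47 ± 0.73 FPKM (-1.07, adjusted p = 0.0007), and NR0B2, a repressor induced by bile acids, from 19.2 ± 11.3 to 6.22 ± 1.01 FPKM (-1.43, adjusted p = 0.0173). HNF4A had 52.6 ± 4.83 and 54.2 ± 4.27 FPKM (0.04, adjusted p = 0.757), and STAT3 and IL6R, which relay the fibrinogen-inducing signal of interleukin-6, had log2 fold changes of -0.17 (adjusted p = 0.469) and 0.04 (adjusted p = 0.821). STAT3 was called lower under the median ratio scaling (-0.45, adjusted p = 0.0454, limma) and not under the upper quartile scaling (0.0801).

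Of the 16 hepatocyte marker entries 2 were higher and 3 were lower (0 and 5 under the median ratio scaling), against 26.7% and 2.28% of all genes, and their summed level was 89730 to 126100 FPKM in the initial state and 76290 to 91540 FPKM in steatosis. These ranges overlapped, and albumin, the highest of the markers, was not called (-0.40, adjusted p = 0.168, limma). In whole liver tissue, a change in the share of hepatocytes and a change of single genes within them cannot be told apart. Of 12 acute phase entries 3 were lower (HP, HPX and APCS) and 0 higher, against 2.28% and 26.7% of all genes. HPX was counted among the hepatocyte markers as well. Skeletal muscle markers stood out in Control pool 1, where ACTA1 had 1439 FPKM against at most 10.5 FPKM elsewhere. The lower fibrinogen values held without that library.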

How the data were processed

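The authors mapped reads with HISAT2 2.0.4 to Sus scrofa 11.1 and estimated gene levels with Bowtie2 2.2.5 and RSEM 1.2.12 (versions from the submitters' processing notes), and deposited FPKM per library with no stated scaling between libraries. The study gives read totals as means of each group, and per-library totals were not used here. For genes of 450 to 550 bp, the median of the length-adjusted FPKM values between 0.1 and 0.16 was 0.118 to 0.128. This rested on 7 to 17 genes per library and would put depths at 92.1% to 100% of the deepest library. Because the window itself confines this median, it cannot settle how equal the depths were. The authors' own pairwise comparisons (fold changes and p values) were not used.

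The 13175 genes that reached 0.3 FPKM in 4 or more of the 8 libraries were fitted with limma 3.58.1 (R 4.3.3, eBayes with trend). The fit used log2(FPKM + 0.1) and a group term alone, and p values were adjusted by Benjamini-Hochberg over all these genes. Fold changes are on this scale. A test on counts was planned only in case counts were found. The fit was tested on simulated data. The 40 entries, 2 of them unplaced, were matched by gene ID to RefSeq genes of Sscrofa11.1. Tables and plots were made with Python 3.11.15, numpy 2.4.6, pandas 2.3.3, scipy 1.17.1 and matplotlib 3.10.9.

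Same-numbered pools deviated together from their group means (r = 0.163, 0.35, 0.317 and 0.247 over the genes tested, against at most 0.028 for other numbers), so the pool number was taken as a pairing, and the blocked value stands beside each call it changed. The p values measure the spread between pools of 2 pigs. Values are given for every member, per pool where the adjusted p was under 0.05 or the gene was among the 10 most abundant. Of the other list, genes with a log2 fold change beyond 1 and a choice of others are named. Members and lists were chosen with earlier results of these data known. The markers of neutrophils (1 of 5 tested higher), endothelium (2 of 9 higher), platelets (1 of 2 higher) and adipocytes (2 of 5 higher, 1 lower) were also counted. Over all genes tested, 26.7% were higher and 2.28% lower. Alternatives covered scaling, filter, pseudocount, trend, block and single libraries.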

Additional observations from a re-analysis of the deposited data

Results flagged for a closer look

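In 7 of 80 groups of 4 pools, 1 pool lay apart from the other 3 by more than Dixon's 95% limit for the share of the group's range, where chance gives about 5% of groups. MASP1 had 28.03 FPKM in steatosis pool 3 against 24.42 to 24.71 FPKM in the others, and C8B had 170.29 FPKM in steatosis pool 1 against 153.72 to 155.94 FPKM. In the initial state, pool 1 was low for CFI, with 259.06 against 338.23 to 354.31 FPKM, and for PROS1, with 42.93 against 50.33 to 51.41 FPKM. C4BPA (gene 396982) had 211.77 FPKM in Control pool 4 against 136.56 to 141.37 FPKM, FGG had 4326.85 FPKM in Control pool 2 against 4163.12 to 4173.88 FPKM, and CPB2 had 821.52 FPKM in Control pool 3 against 619.26 to 646.16 FPKM.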

How the results depend on the processing

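All 12 called members kept their direction in 17 other ways of processing and 2 chosen after seeing the data, and FGA, FGG and MASP1 kept their call in all 19. The members higher numbered 8, and 1 (median ratio), 3 (upper quartile), 15 (hepatocyte list), 3 to 8 (without single libraries: 4 without Control pool 1 or 4 or steatosis pool 1, 3 without steatosis pool 2 or 4, 5 without steatosis pool 3), 3 (without both Control pools 1 and 4, an alternative added later) and 2 (pool block with median ratio, also added later). The members lower numbered 4, and 9, 8 and 2 under the 3 scalings in the same order, 2 without a filter, 3 to 4 without single libraries and 9 with block and median ratio. At the limits of the study, 0 members were higher, but 2 were with the hepatocyte list, and 0 to 1 without single libraries (1 without steatosis pool 3). The partner genes higher numbered 21, and 13 (median ratio) and 12 (block and median ratio), and those lower 3, and 9 (median ratio), 8 (upper quartile) and 7 (block and median ratio). The median log2 fold change of the members was 0.08, and -0.20, -0.16 and 0.25 under the 3 scalings and -0.20 with block and median ratio. The cause of these differences was not tested beyond the shift that each scaling makes by construction. With the pool number as a block 8 members were higher and 4 lower, and no call changed other than those of SERPING1, F12, C4BPA (gene 100520761) and SERPIND1. Of the members not called, 20 changed sign in at least 1 alternative. Without a filter the calls of FGB, C1R, F12 and SERPING1 were lost, and without the trend those of F12 and SERPING1. TFPI, VWF and C5AR2 gave no value under a filter of 1 FPKM. With 4 pools a group and no counts, counting error could not be given.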
